A study of Sorghum bicolor with 8 samples.

Results

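The genes described here are 9 sorghum genes of the circadian clock and of the photoperiod pathway to flowering, out of 34129 genes in the files. They were chosen by identifier and are LHY, TOC1 and GIGANTEA of the clock, the flowering repressors PRR37 (Ma1) and Ghd7 (Ma6), the activators CONSTANS and Ehd1, and CN8 and CN12 of the FT-like family. The names come with the list of identifiers. The files hold identifiers only, and no annotation used here pairs them with names, so the names could not be checked against the files.

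The clock of a plant cell is a loop of transcription factors that repress each other at different hours of the day. In Arabidopsis, LHY accumulates around dawn and represses TOC1 and GIGANTEA, whose transcripts peak towards evening, and TOC1 in turn represses LHY. In leaves of grasses, the clock and light together set the level of regulators such as PRR37, Ghd7, CONSTANS and Ehd1, which act on FT-like genes. The FT-like proteins (florigens) move from the leaf to the shoot apex and start flowering.

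Leaf and the callus types I, II and III were sequenced as RNA, with 2 biological replicate libraries in each of the 4 groups. All were wild type of the line Hiro-1. The 3 callus types, unorganised tissue grown in culture, came from immature embryos of 1 to 2 mm, taken 13 to 15 days after flowering, held in the dark at 25 °C for 3 weeks on induction medium, then separated by type and grown for 20 days more on fresh induction medium. Leaf tissue had regenerated from Callus II, after transfer to differentiation medium with days of 16 h light (2000 lx) and 8 h darkness. The sources used here do not state the hour of harvest, the age of the leaves or the light during the 20 days of subculture. Tissue, light, medium and hour therefore cannot be told apart between Leaf and callus, and in any tissue a lower level per cell cannot be told apart from fewer cells that express the gene. Between callus types, type and hour of harvest likewise cannot be told apart. Whether the leaves carry their usual marker genes was not analysed here, because the identifiers have no names.

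Values are FPKM, fragments scaled to transcript length and to the fragments sequenced, so that levels of different genes can be set side by side. The FPKM sum was 595109 and 605150 in Leaf and 643004 to 737291 in callus, and 24497 to 26787 genes were above 0 per library. Read totals are not given. From the steps between low values, the depth relative to Callus I replicate 1 was estimated at 0.964 to 1.07 in the other callus libraries, and at 1.27 and 1.62 in Leaf, where only 9.97% and 12.2% of low pairs lay on the steps. The 23166 genes that reached 1 FPKM in 2 or more libraries were tested with limma on log2(FPKM + 1), and a gene was called where its p, adjusted over all of them by Benjamini and Hochberg's method, was under 0.05. Differences are given on that log2 scale with the standard error (SE, n = 2 per group).

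The 9 genes divided into 4 that were above 0 in all 8 libraries and 5 that were listed at 0 in all 6 callus libraries. Over all genes in the files, 59% were above 0 in all 8 libraries and 14.1% were listed at 0 in all 6 callus libraries. The first 4 were the clock genes LHY, TOC1 and GIGANTEA and the FT-like gene CN8, and only these passed the filter and were tested. The other 5 were PRR37, Ghd7, CONSTANS, Ehd1 and CN12. Both repressors and both activators that stand between clock and FT-like genes in the pathway were thus in the group listed at 0 in callus. Of these, Ghd7 and Ehd1 were barely above 0 in Leaf too, each in 1 library only (0.0683 and 0.0179 FPKM).

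LHY, a MYB-related transcription factor of the morning loop (Sobic.007G047400.v3.2, chromosome 7, 4745530 to 4757815), was several times higher in leaves than in any callus. The Leaf libraries held 247.3 and 236.8 FPKM, those of Callus II 59.72 and 50.74, those of Callus I 32.86 and 54.11, and those of Callus III 22.52 and 33.16. Both Leaf libraries stood above all 6 callus libraries, by a factor of 3.97 at the closest and 11 at the widest. In Leaf, 99.2% of all genes had a lower value than LHY, in both libraries.

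LHY rose in Leaf by 2.12 ± 0.26 against Callus II (SE, limma adjusted p = 3.03e-04), by 2.49 ± 0.26 against Callus I (limma adjusted p = 1.24e-04) and by 3.10 ± 0.26 against Callus III (limma adjusted p = 5.61e-05). On the FPKM scale the group means differed 4.38-fold, 5.57-fold and 8.69-fold. Of all genes tested, 10.5%, 9.11% and 4.7% rose by more in the respective comparison. All 3 differences were called under each of the 16 alternatives, in which they ran from 2.00 to 3.37. A 1578 bp locus, Sobic.007G047450.v3.2, lies wholly inside that of LHY, and whether strand was used in counting is not given. That locus stood at 0.677 to 1.61 FPKM in callus and at 4.60 and 4.10 in Leaf.

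GIGANTEA, a large protein that in Arabidopsis controls the stability of clock components and promotes CONSTANS expression (Sobic.003G040900.v3.2, chromosome 3, 3821973 to 3830666), was also highest in leaves. The Leaf libraries held 204 and 212.4 FPKM, those of Callus II 143.2 and 136.4, those of Callus III 77.08 and 92.6, and those of Callus I 53.96 and 85.94. Every library was thus well supplied, with at least 93.2% of all genes below GIGANTEA. Both Leaf libraries again lay above all 6 callus libraries, by a factor of 1.42 to 3.94.

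GIGANTEA rose in Leaf by 1.60 ± 0.21 against Callus I (limma adjusted p = 4.33e-04) and by 1.29 ± 0.21 against Callus III (limma adjusted p = 0.00157). These calls were kept under each of the 16 alternatives. Against Callus II the difference was 0.57 ± 0.21 (limma adjusted p = 0.0458, 1.49-fold by group means), and only 8 of 16 alternatives called it, with adjusted p from 0.00263 to 0.182. It was not called when any Callus II, Callus III or Leaf library was left out, although the difference itself stayed at 0.54 to 0.61 over all libraries left out. Within the 2 groups the replicates differed by only 0.06 (Leaf) and -0.07 (Callus II), while those of Callus I, which share in the pooled error, differed by 0.66. With only the 4 libraries compared in the fit, the SE was 0.07 and the adjusted p 0.00263. With median-ratio scaling the difference was 0.86. Of all genes tested, 30.2% rose by more than GIGANTEA against Callus II, 16.2% against Callus I and 18.6% against Callus III.

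TOC1, a pseudo-response regulator of the evening loop (Sobic.004G216700.v3.2, chromosome 4, 56625893 to 56628817), went the other way. The Leaf libraries held 15.17 and 15.45 FPKM, those of Callus III 20.02 and 20.14, those of Callus I 19.3 and 23.21, and those of Callus II 41.67 and 40.75. Leaf was below all 6 callus libraries, and the Callus II libraries were above the other 6. TOC1 fell in Leaf by -1.37 ± 0.11 against Callus II (limma adjusted p = 4.05e-05) and by -0.44 ± 0.11 against Callus I (limma adjusted p = 0.0102), both called under all 16 alternatives. Against Callus III it fell by -0.37 ± 0.11 (limma adjusted p = 0.0244). The alternatives gave -0.55 to -0.36 with adjusted p from 0.00639 to 0.0918, and the call was lost without any of the Callus III or Leaf libraries. Of all genes tested, 17.7% fell by more than TOC1 against Callus II, 33% against Callus I and 30.2% against Callus III.

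**Figure D1:**
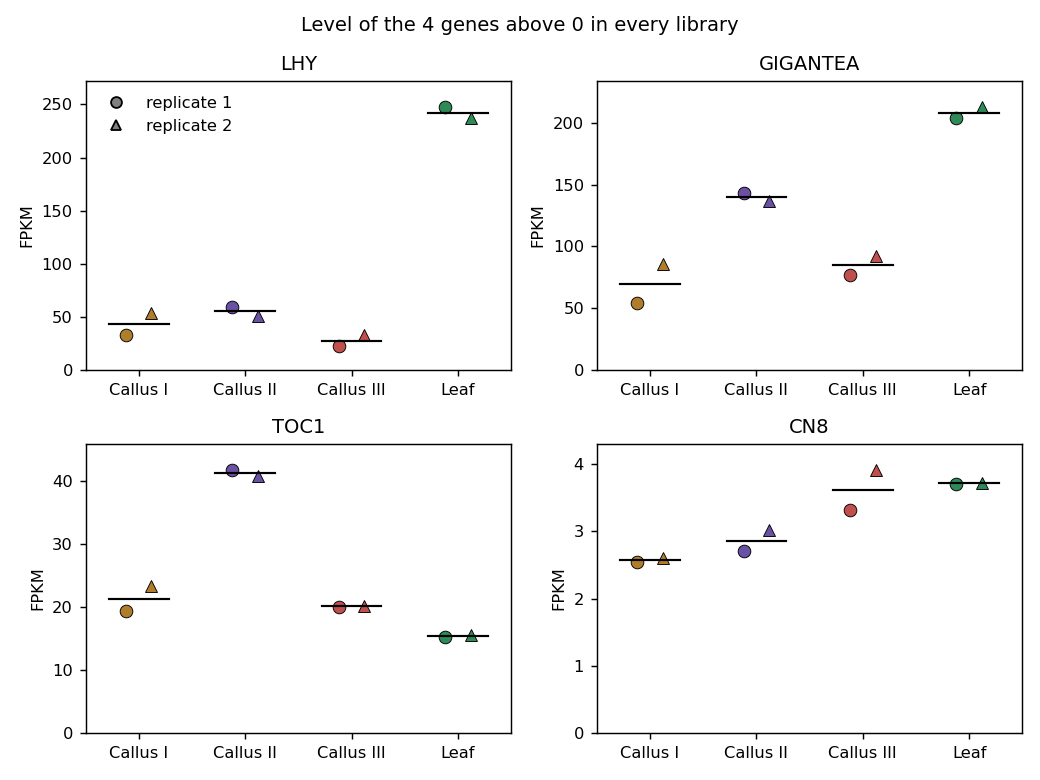
FPKM (y axes from 0) of LHY, GIGANTEA, TOC1 and CN8 in each library by group, with circles for replicate 1, triangles for replicate 2 and lines at the mean of the 2 libraries. LHY stands at 247.3 and 236.8 in Leaf against at most 59.72 in callus, while TOC1 is lowest in Leaf, at 15.17 and 15.45.

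The balance of the clock genes therefore differed between the callus and Leaf libraries, which can be read within each library without regard to its scaling. The hour of harvest is not stated, so tissue, light, medium and hour cannot be told apart in these ratios either. The ratio of LHY to TOC1 was 1.12 to 2.33 in the 6 callus libraries and 16.3 and 15.3 in Leaf. The ratio of GIGANTEA to TOC1 was 2.8 to 4.6 in callus and 13.4 and 13.8 in Leaf. In both cases Leaf lay far outside the callus range, and the callus types overlapped or lay close to each other.

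The order of LHY and GIGANTEA also differed between the callus and Leaf libraries, with the same limit. GIGANTEA exceeded LHY in every callus library, by factors of 1.64 and 1.59 (Callus I), 2.4 and 2.69 (Callus II), and 3.42 and 2.79 (Callus III). In Leaf the ratio of GIGANTEA to LHY was 0.825 and 0.897, so LHY was the higher. The 3 ratios were chosen after the values were seen, and they are given as a description with no test.

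**Figure D2:**
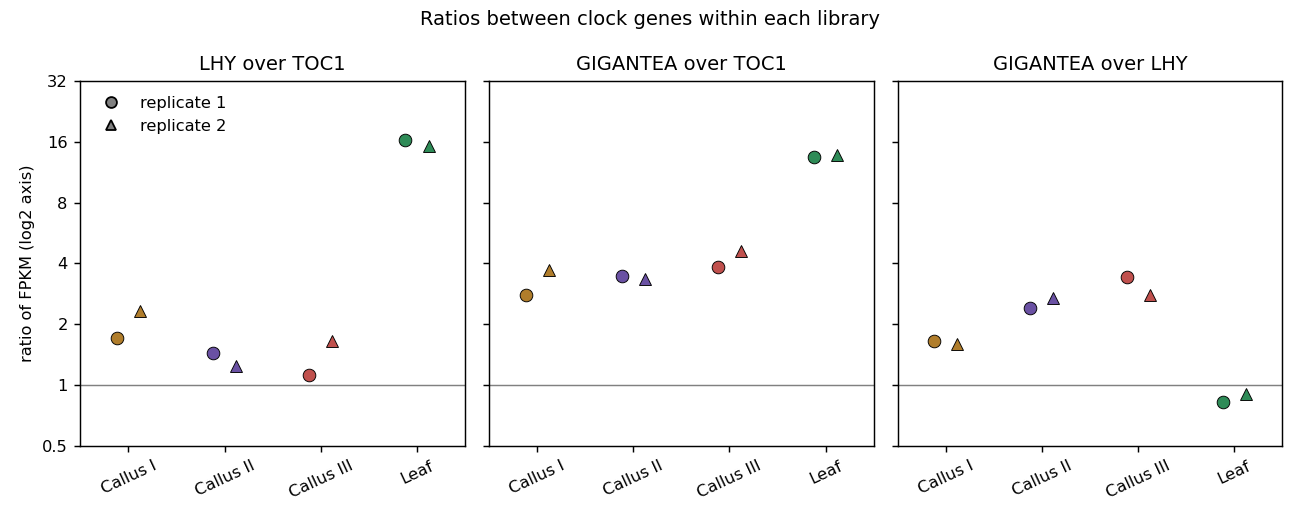
Ratios of FPKM between clock genes within each library (log2 y axis, grey line at a ratio of 1), by group, with circles for replicate 1 and triangles for replicate 2. LHY over TOC1 is 16.3 and 15.3 in Leaf and at most 2.33 in callus, and GIGANTEA over LHY is below 1 in Leaf alone.

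CN8, an FT-like gene (Sobic.009G199900.v3.2, chromosome 9, 54961462 to 54963786), was low and nearly level across the tissues. The Leaf libraries held 3.702 and 3.724 FPKM, those of Callus III 3.31 and 3.912, those of Callus II 2.707 and 3.019, and those of Callus I 2.536 and 2.608. Leaf overlapped Callus III and lay above both other types. The values of CN8 are uncertain, because 1000 bp of its locus, 43% of it, also belong to the locus Sobic.009G199800.v3.2, which stood at 3.60 to 6.28 FPKM in callus and at 6.68 and 7.65 in Leaf.

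CN8 rose in Leaf against Callus I, by 0.40 ± 0.14 (limma adjusted p = 0.0384). That call was kept in 7 of 15 alternatives, with adjusted p from 0.0184 to 0.116, and was lost under the replicate block (adjusted p = 0.0545), with a pseudocount of 0.1 FPKM (0.0601) and without any Callus I, Callus II or Leaf library. Against Callus II the difference was 0.29 (95% interval -0.05 to 0.63, limma adjusted p = 0.107), and 2 of 15 alternatives, both scalings, called it. Against Callus III it was 0.03 (-0.30 to 0.37, limma adjusted p = 0.854), so a change of more than 0.37 in either direction lies outside this interval.

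CN12, the other FT-like gene (Sobic.003G295300.v3.2, chromosome 3, 62747946 to 62749919), was listed at 0 in all 8 libraries, Leaf included. That was the case for 3621 genes, 10.6% of all. It was the only gene of the 9 with no value above 0 anywhere.

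PRR37, a pseudo-response regulator that delays flowering of sorghum in long days (Sobic.006G057866.v3.2, chromosome 6, 40304883 to 40316799), appeared in leaves alone. It stood at 0.761 and 0.937 FPKM in Leaf and was listed at 0 in all 6 callus libraries. CONSTANS, a zinc finger protein that regulates FT-like genes (Sobic.010G115800.v3.2, chromosome 10, 12353901 to 12355900), behaved likewise, at 0.841 and 0.656 FPKM in Leaf and 0 in callus. Both were low even in Leaf, where only 25.5% and 27.9% of genes above 0 had a lower value than PRR37, and 26.6% and 24.1% a lower one than CONSTANS.

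Values below these were regularly listed in callus. Each callus library held 5343 to 6604 genes that were above 0 and below 0.761 FPKM, the lower Leaf value of PRR37. Of 406 genes that lay within the Leaf range of PRR37 and CONSTANS in both Leaf libraries, 20 (4.93%) were listed at 0 in all 6 callus libraries, PRR37 and CONSTANS among them, and 386 were above 0 in at least 1. The callus levels of those 386 were not analysed here, so the count does not show whether such a low level would be detected in callus. In all, 792 genes (2.32%) were above 0 in both Leaf libraries and listed at 0 in all of callus. A listed 0 may also be a failed estimate, and Leaf may be the more deeply sequenced, so no fold is given. With no filter on low values, limma gave an adjusted p of 2.66e-05 to 3.76e-05 for PRR37 and 5.09e-05 to 7.10e-05 for CONSTANS in the 3 comparisons of Leaf with a callus type. In that fit both genes have no spread within callus, since all 6 values are 0, and their error comes from the Leaf libraries and from the variance shared across genes. Both enter that fit only through their Leaf values. These p-values therefore cannot decide whether the genes differ, and no conclusion is drawn from them.

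Ghd7, a CCT domain protein that represses flowering (Sobic.006G004400.v3.2, chromosome 6, 697459 to 700101), was at the edge of detection. It had 0.0683 FPKM in Leaf replicate 1 and was listed at 0 in the 7 other libraries. Ehd1, a B-type response regulator that promotes FT-like genes in rice (Sobic.001G227900.v3.2, chromosome 1, 21860030 to 21867056), had 0.0179 FPKM in Leaf replicate 2 and 0 elsewhere. Only 6.2% and 1.5% of the genes above 0 in the respective library had a lower value. A value in 1 of 2 replicates does not separate Leaf from callus for either gene. With no filter the adjusted p was 0.309 to 0.333 for Ghd7 and 0.697 to 0.732 for Ehd1 (limma). Each gene enters that fit only through its single Leaf value, so these p-values cannot decide whether it differs, and no conclusion is drawn from them.

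**Figure D3:**
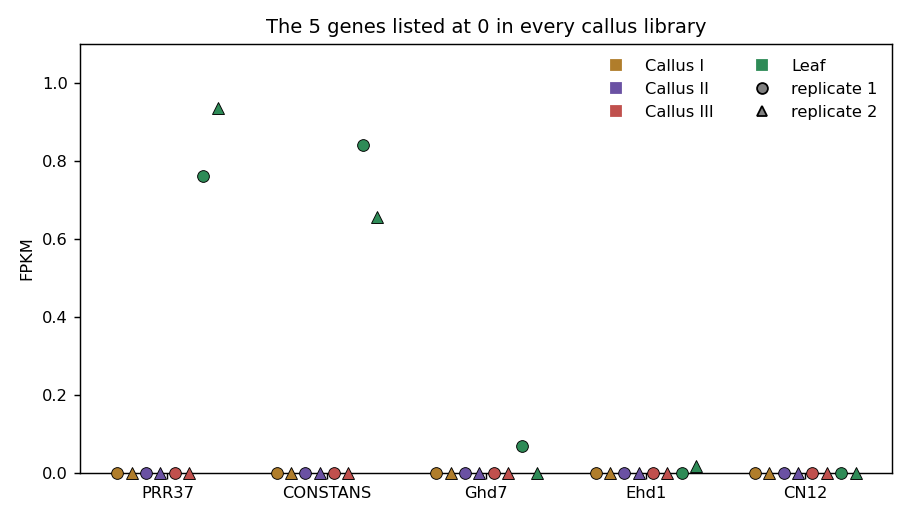
FPKM (y axis from 0) of PRR37, CONSTANS, Ghd7, Ehd1 and CN12 in the 8 libraries, coloured by group, with circles for replicate 1 and triangles for replicate 2. PRR37 and CONSTANS reach 0.656 to 0.937 in Leaf, Ghd7 and Ehd1 have a single low value each, and all callus values are 0.

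Among the callus types, Callus II had more transcript of GIGANTEA and TOC1 than Callus I, with the hour of harvest not stated for either. GIGANTEA was higher in Callus II by 1.03 ± 0.21 (limma adjusted p = 0.00466) and TOC1 by 0.93 ± 0.11 (limma adjusted p = 3.70e-04), a 2-fold and 1.94-fold difference of the group means. Both calls were kept under all 16 alternatives, with GIGANTEA at 0.69 to 1.36 and TOC1 at 0.60 to 1.06. GIGANTEA differed between its Callus I libraries by 1.59-fold, and leaving out replicate 1 or replicate 2 of Callus I gave 0.70 or 1.36. LHY differed by 0.38 (95% interval -0.25 to 1.00, limma adjusted p = 0.25) and CN8 by 0.11 (-0.23 to 0.45, limma adjusted p = 0.528). LHY passed the test in 1 of 16 alternatives, without Callus I replicate 2, where it was 0.73 (adjusted p = 0.0417, range 0.0417 to 0.965).

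For the clock genes Callus II also exceeded Callus III, although only TOC1 was called under both scalings. TOC1 fell in Callus III by -1.00 ± 0.11 (limma adjusted p = 4.96e-04), and this call was kept under all 16 alternatives at -1.03 to -0.56. LHY fell by -0.98 ± 0.26 (limma adjusted p = 0.0165) and GIGANTEA by -0.72 ± 0.21 (limma adjusted p = 0.0249). With median-ratio scaling LHY differed by -0.54 (adjusted p = 0.115, range 0.00797 to 0.115) and GIGANTEA by -0.27 (adjusted p = 0.344, range 0.00343 to 0.344), and neither was called. With equal sums LHY differed by -0.69 (limma adjusted p = 0.0726) and GIGANTEA by -0.42 (limma adjusted p = 0.167), again not called. Of 16 alternatives, 10 called LHY and 9 called GIGANTEA. The 3 calls became 1 without Callus II replicate 1, Callus III replicate 1 or either Leaf replicate. CN8 differed by 0.25 (95% interval -0.08 to 0.59, limma adjusted p = 0.169) and was called at 0.60 with median-ratio scaling and at 0.49 with equal sums. The scaling named equal sums did not equalise the FPKM sums over all genes.

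Between Callus III and Callus I none of the 4 genes was called by limma, and 1 of them, CN8, had an unadjusted p under 0.05 (0.0376). The differences were 0.31 for GIGANTEA (95% interval -0.20 to 0.81), -0.07 for TOC1 (-0.34 to 0.20), -0.61 for LHY (-1.23 to 0.01) and 0.37 for CN8 (0.03 to 0.70), with adjusted p of 0.255, 0.614, 0.0838 and 0.0607. The interval of TOC1 was the narrowest of the 4 and that of LHY the widest. Without Callus I replicate 1 LHY was called at -0.96 and GIGANTEA stood at -0.02, and without Callus I replicate 2 GIGANTEA was called at 0.64. CN8 was called at 0.47 with median-ratio scaling and at 0.58 with equal sums, and at 0.46 without Callus III replicate 1. With no variance trend it was called at an unchanged 0.37.

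**Figure D4:**
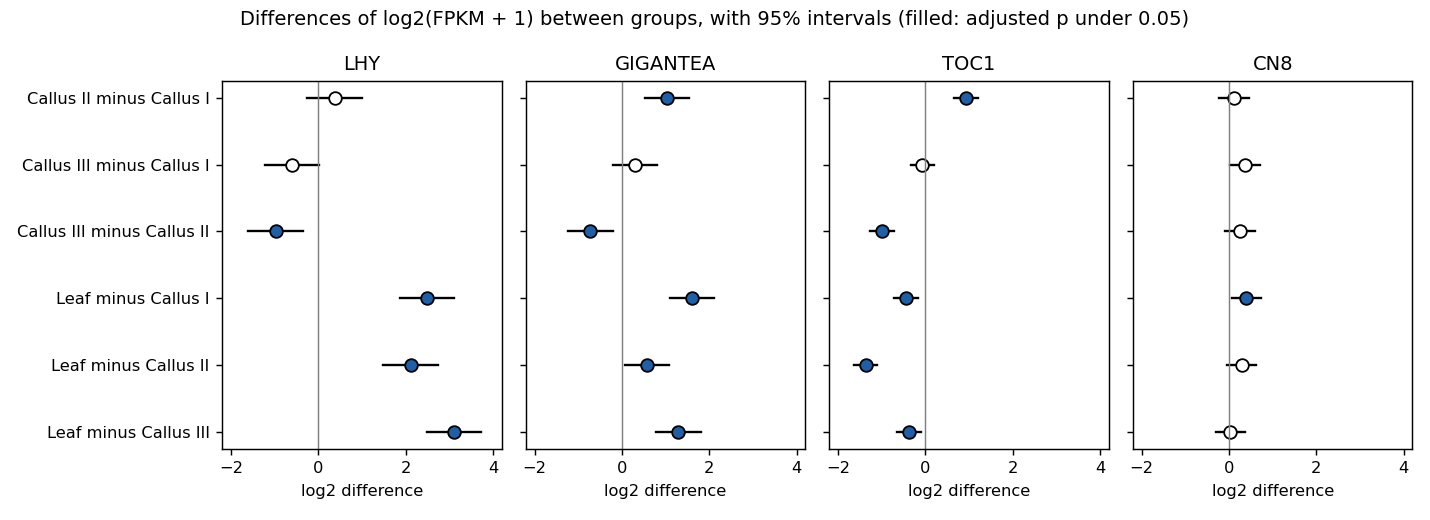
Differences of log2(FPKM + 1) between groups (x axes) for LHY, GIGANTEA, TOC1 and CN8 in the 6 comparisons, as points with 95% intervals from limma, filled where the adjusted p was under 0.05. LHY is 2.12 to 3.10 higher in Leaf than in each callus type, and TOC1 is lower in Leaf and in Callus III than in Callus II.

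The order of levels can be summed up per gene. For LHY it was Leaf (242.1 ± 7.39 FPKM, mean and SD, n = 2), Callus II (55.2 ± 6.35), Callus I (43.5 ± 15) and Callus III (27.8 ± 7.52), where the test did not separate Callus I from either other type. For GIGANTEA it was Leaf (208.2 ± 5.97), Callus II (139.8 ± 4.81), Callus III (84.8 ± 11) and Callus I (70 ± 22.6), with the last pair not separated. For TOC1 it was Callus II (41.2 ± 0.645), Callus I (21.3 ± 2.77), Callus III (20.1 ± 0.0808) and Leaf (15.3 ± 0.195), with Callus I and Callus III not separated. For CN8 it was Leaf (3.71 ± 0.0157), Callus III (3.61 ± 0.425), Callus II (2.86 ± 0.221) and Callus I (2.57 ± 0.0511), and no neighbours in this order were separated.

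These counts stand against a background in which a large share of all genes differed. Of the 4 genes tested, LHY, GIGANTEA and CN8 rose and TOC1 fell in Leaf against Callus I, where 38.8% of all genes tested rose and 32.1% fell. LHY and GIGANTEA rose and TOC1 fell against Callus II (all genes 32.4% and 39%) and against Callus III (38.5% and 25.6%). In Callus II against Callus I, 2 of the 4 rose and none fell (39.1% and 25.4%). In Callus III against Callus II, none rose and 3 fell (15.1% and 42.3%), and in Callus III against Callus I none did either (26.9% and 33.2%). Both Leaf libraries lay above all 6 callus libraries for LHY and GIGANTEA, as for 27.4% of genes tested, and below them for TOC1, as for 20.2%. A call by itself is therefore common in these data, and the 4.7% to 10.5% of genes that rose by more than LHY in Leaf are the closer comparison. Comparisons that use the same libraries are not independent.

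The median difference of the 4 genes was 0.43 in Leaf against Callus II, 1.00 against Callus I and 0.66 against Callus III, beside -0.11, 0.11 and 0.13 for all genes tested. The median was 0.65 in Callus II against Callus I, 0.12 in Callus III against Callus I and -0.85 in Callus III against Callus II, beside 0.18, -0.03 and -0.33. These medians are no shared change, since the genes moved in different directions, in Leaf against Callus I from -0.44 (TOC1) to 2.49 (LHY). Median-ratio scaling moved the medians of all genes between callus types to 0.00, 0.02 and 0.00, in the same order, and those against Leaf to 0.07, 0.07 and 0.02. With this scaling the calls over all genes became 6885 higher and 7507 lower in Callus II against Callus I (9062 and 5874 as deposited), and 5288 higher and 5342 lower in Callus III against Callus II (3495 and 9789). Equal sums gave 8163 higher and 6284 lower in Callus III against Callus I (6236 and 7694). GIGANTEA and TOC1, higher in Callus II than in Callus I by 1.03 and 0.93, thus differed by more than the broad shift of 0.18, although 21.3% and 24.1% of all genes tested rose by more than they did.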

How the data were processed

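The deposited values are FPKM, per the file headers, with an identifier and a locus per gene. Trimmomatic, TopHat2 2.0 and Cuffdiff appear in the submitters' processing notes without a role. For genome build, annotation, settings, filters and use of strand, the sources used here hold no statement. Coordinates were copied from the files, and 1 was added to each start because the files count from 0. The 8 files were joined by identifier (Python 3.11.15).

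Libraries were grouped by title. limma 3.58.1 (R 4.3.3) was fitted to log2(FPKM + 1) of 23166 genes with 1 mean per group over all 8 libraries, a variance trend (prior degrees of freedom 2.83), and the 6 pairs of groups were tested 2-sided, after the script was tested on simulated data. With 2 libraries on each side an exact permutation p is at least 0.333, so calls rest on variances shared across genes. The replicates are biological per the labels. No separate cultures are named, so the p-values measure only the spread between these libraries, which may be technical.

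Relative depth is the step position at which the largest share of ratios of values under 0.2 FPKM fell within 0.2% of a ratio of small whole numbers. That share was 30.1% to 49.4% in the callus libraries, less than a majority. The absolute depth is unknown, so no counting intervals are given. For the 4 lists of other clock, light, flowering and tissue marker genes, 0 members were found, since 0 identifiers matched the 32945 genes of the RefSeq table (assembly Sorghum_bicolor_NCBIv3). Those lists were not analysed here, and no sequences are shown. The rule for named genes took all 9 genes and, for likeness, the 2 genes with the highest Pearson r to each tested gene. Members, lists and tests were chosen with earlier results of these data known.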

Additional observations from a re-analysis of the deposited data

How the results depend on the processing

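Each result was recomputed with a pseudocount of 0.1 FPKM, no filter, a mean of at least 5 FPKM, 2 scalings, a replicate block, the 4 libraries compared alone, no variance trend, and each library left out. The scaling named equal sums did not equalise the FPKM sums over all genes. Its factors were 0.8603 and 0.8919 in Callus III, whose FPKM sums were 737291 and 719789. In Callus II they were 1.077 and 1.085, with FPKM sums of 712239 and 643004. Of the recomputed differences of single genes, 326 kept direction and call, 33 lost a call, 11 gained one and 8 changed sign, all 8 in differences that were not called. The sign changes were CN8 in Callus II against Callus I (-0.13, median-ratio scaling), CN8 in Leaf against Callus III (-0.10 with median-ratio scaling, -0.11 with equal sums, -0.06 to 0.13 with a library left out, the lowest without Callus III replicate 1), TOC1 in Callus III against Callus I (0.04 and 0.19 with the scalings, and -0.20 to 0.05 with a library left out, the highest without Callus I replicate 2) and GIGANTEA there (-0.02 to 0.64, the lowest without Callus I replicate 1). With a mean of at least 5 FPKM, CN8 was not tested.

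The number of the 9 genes called in Callus III against Callus I was 1 in place of 0 with median-ratio scaling, equal sums or no variance trend, and 0 to 1 with a library left out. With a library left out it was 1 to 3 in Callus III against Callus II (3 in the full data), 2 to 3 in Callus II against Callus I (2), 3 to 4 in Leaf against Callus I (4), and 2 to 3 in Leaf against Callus II and Callus III (3 each). With no filter, PRR37 and CONSTANS were also tested and called in the Leaf comparisons, which gave 5 in place of 3 against Callus III, 6 in place of 4 against Callus I, and 4 in place of 3 against Callus II, where GIGANTEA was lost (adjusted p = 0.067, range over alternatives 0.00263 to 0.182). PRR37 and CONSTANS enter that fit through their Leaf values alone, so no conclusion is drawn from their calls. The cause of the other changes was not tested.

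The replicate block gave 3 calls in place of 4 in Leaf against Callus I, where CN8 had an adjusted p of 0.0545 (limma), and changed no other call. The labels do not say that replicate numbers pair libraries, and deviations from the group means of equally numbered libraries correlated at -0.103 to 0.018 between groups. With a library left out, the lone library of its group is assumed to vary like the other groups. The absolute depth is unknown, and how far it limits Ghd7 and Ehd1, with 1 value above 0 each, or CN12, with none, was not tested.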

Other observations

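LHY and GIGANTEA varied more between callus replicates than TOC1, and all 3 differed in the same direction within each callus type. LHY differed 1.65-fold and GIGANTEA 1.59-fold between the Callus I libraries, in both cases with replicate 2 the higher, and 90.8% and 89.6% of 14777 genes averaging 5 FPKM or more differed by less. TOC1 differed 1.2-fold there. In Callus III, LHY was 1.47-fold and GIGANTEA 1.2-fold higher in replicate 2, and TOC1 1.01-fold, while the median gene was higher in replicate 2 by 0.154 on the log2 scale. In Callus II, replicate 1 was the higher, by 1.18-fold for LHY, 1.05-fold for GIGANTEA and 1.02-fold for TOC1. Of the same 14777 genes, 87.7% differed by less than LHY and 60.8% by less than GIGANTEA in Callus III. In Callus II these shares were 72.1% and 30.2%. In Leaf the replicates of all 3 genes were within 1.04-fold.

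Loci around the 5 genes listed at 0 in callus were in part expressed there, as were loci around the 4 tested genes. The 5 loci on each side of a gene were taken, 10 per gene. Around PRR37 and around Ghd7, 6 each reached 1 FPKM in at least 1 callus library, and 4 did around CONSTANS, 8 around Ehd1 and 9 around CN12. Around LHY, TOC1, GIGANTEA and CN8 the counts were 4, 5, 9 and 10. Over all genes the share was 66.1%, so these counts do not set the 5 genes apart. Of the neighbours of the 5 genes, in the order given above, 2, 2, 4, 1 and 1 were listed at 0 in all 6 callus libraries, against 14.1% of all genes.

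The genes most like each tested gene over the 8 libraries (Pearson r of log2(FPKM + 1), a description over 4 groups of 2 libraries, among genes averaging 5 FPKM or more) are known by identifier only. For LHY they were Sobic.003G361800.v3.2 (r = 0.997) and Sobic.006G264500.v3.2 (0.996), which moved far less, the first from 8.46 to 18.5 FPKM. For GIGANTEA they were Sobic.010G010700.v3.2 (0.994) and Sobic.002G042600.v3.2 (0.993), and for CN8 Sobic.009G141300.v3.2 (0.983) and Sobic.008G009900.v3.2 (0.981). For TOC1 they were Sobic.007G160300.v3.2 (0.992) and Sobic.006G117500.v3.2 (0.992), and the latter ran from 0.128 FPKM in Leaf to 144 in Callus II. GIGANTEA itself correlated with LHY at 0.87, and 1828 genes (12.4%) were more like LHY than GIGANTEA was. TOC1 correlated with LHY at -0.37 and with GIGANTEA at -0.03.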
